A study of Bos taurus with 60 samples.

Results

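The miRNAs named for striated muscle were followed here in bovine liver. The members were fixed by name as bta-miR-1, bta-miR-133a, bta-miR-133b, bta-miR-206 and bta-miR-499, which is 5 of the 1030 known bovine miRNAs counted. Liver was taken after slaughter from 60 steers castrated at birth, with 20 each of purebred Angus, purebred Charolais and the crossbred Kinsella Composite (KC). Their finishing diet held 75% barley grain, with silage of the same cereal at 20% and rumensin pellets at 5%. In each breed 6 steers were labelled low-RFI and 6 high-RFI, and the other 8 carried no group. Residual feed intake (RFI) is the feed an animal eats beyond what its growth and size predict, so that low-RFI steers are the efficient ones. The study chose all 60 steers from the high and low ends of RFI in their breed, including the 8 without a group. Those labelled low and high RFI were extreme steers with consistent miRNA profiles. Both choices limit the steers as a sample of each breed. The 3 breeds were slaughtered at different mean ages, so that breed and age cannot be told apart. The tissue was the right lobe with its fibrous capsule removed, and each steer gave 1 small RNA library.

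In heart and skeletal muscle, miR-1 and miR-133a are cut from shared primary transcripts, where miR-1 favours differentiation and miR-133a favours proliferation of muscle precursors. A second cluster gives miR-206 and miR-133b, with miR-206 known from skeletal muscle and its repair, and miR-499 lies in an intron of the myosin gene MYH7B and is known from heart and slow fibres. The liver itself is marked by miR-122 and miR-192, and its vessels and bile ducts carry smooth muscle and stromal cells rather than striated fibres.

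The mature sequences of 4 members are shown because they decide which reads can be told apart, with the seed (bases 2 to 8) in capitals.
bta-miR-133a: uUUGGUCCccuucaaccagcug
bta-miR-133b: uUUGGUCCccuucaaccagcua
bta-miR-1: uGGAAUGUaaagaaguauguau
bta-miR-499: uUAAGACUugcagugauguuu
The miR-133a and miR-133b sequences have the same seed and are both 22 bases long. They differ only by G22A, counted from the 5′ end with the base of miR-133a first, so that a read that ends before base 22 fits both. How such reads were shared out is not given in the sources used here, and the split between miR-133a and miR-133b is therefore uncertain. Among the 588 mature sequences at hand, no other had either the seed of miR-1 or that of miR-499. The sequence of bta-miR-206, which is known to have the seed of miR-1, was not among them. In the RefSeq annotation of the assembly ARS-UCD2.0, MIR1-1 lies beside MIR133A-1 and MIR1-2 beside MIR133A-2, MIR206 lies beside MIR133B, and MIR499 lies inside MYH7B. The files used an older build, UMD3.1, and no coordinates are given.

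The liver markers were abundant in these libraries. The most abundant of all known miRNAs was bta-miR-192, with a mean of 234000 CPM (counts scaled to a library size of 1e+06), and bta-miR-122 ranked 17 with 8140 CPM. Libraries held between 1930859 and 6759381 counts, and the medians were 3720336 (Angus), 4405876 (Charolais) and 5547018 (KC), so that 3 counts stood for between 0.444 and 1.55 CPM. CPM values are scaled with TMM factors, which ranged from 0.671 to 1.17. All p-values below describe the spread between steers, which includes counting error. Steers with a shared sire are half-sibs and not fully independent, and the 60 steers had 22 named sires. The breed tests did not include the sire.

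Of the members, bta-miR-133a was by far the most abundant in liver and the only one with at least 44 counts in every steer. Its level ranged from 17.7 to 55.2 CPM with a median of 34.4 CPM over 60 steers, from 44 to 281 counts, with a coefficient of variation of 25.5%, and by mean level it ranked 148 of 1030. The mean level over the miRNAs tested had a median of 7.95 CPM. Next came bta-miR-1, from 0.22 to 10.4 CPM with a median of 1.95 CPM, a mean of 2.17 ± 1.49 CPM and at least 1 count in all 60 steers. Lower still was bta-miR-499, from 0 to 2.59 CPM with a median of 1.21 CPM and reads in 58 steers. The level of bta-miR-133b ran from 0 to 2.67 CPM with a median of 0.889 CPM and reads in 57 steers. In bulk tissue, fewer cells of a type and less RNA per cell cannot be told apart, so that none of these levels names a source.

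The skeletal muscle member bta-miR-206 gave 3 reads in all 60 steers. Single reads were counted in Charolais steers 5 and 16 and in KC steer 8. In Angus it was at 0 in all 20 steers, and 3 counts over all Angus libraries would be 0.0413 CPM. It passed no filter on low counts and entered no test. The cardiac relatives bta-miR-208a and bta-miR-208b, which lie in the myosin genes MYH6 and MYH7, gave 2 and 5 reads in total, and bta-miR-133c gave 0. Of the 7 miRNAs on the striated muscle list, which adds bta-miR-208a and bta-miR-208b to the members, 4 had at least 1 CPM in at least 6 steers.

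Most reads of the members came from bta-miR-133a in every library. It made up 76.2% to 94.7% of a steer's member counts, with a median of 88.9%. The medians were 5.32% for bta-miR-1, 3.04% for bta-miR-499 and 2.41% for bta-miR-133b. Although both are cut from the same transcripts, 1 read of bta-miR-1 stood against 4.47 to 154 reads of bta-miR-133a in a steer, with a median of 16.9. That ratio ranged from 7.33 to 66.0 in Angus and from 4.47 to 154 in Charolais. In KC it ranged from 8.36 to 39.7, within the range of both other breeds. It compares read counts of different sequences, which library preparation need not capture alike. Each of bta-miR-1 and bta-miR-133a was listed for 2 precursors with equal counts in all 60 steers, so the files do not tell the 2 loci apart.

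Depth set how well the members could be told apart between steers. Within breeds, the variance of bta-miR-133a counts was 8.99 times what counting alone gives, and counting accounted for 11.2% of its variance in CPM. The variance of bta-miR-1 was 4.71 times that of counting, and 2.09 times without Charolais steer 16. By contrast, it was 1.36 times for bta-miR-133b and 1.4 times for bta-miR-499, for which counting accounted for 71.6% and 73.6% of the variance. Differences between single steers in bta-miR-133b and bta-miR-499 were therefore mostly not detectable at this depth.

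**Figure D1:**
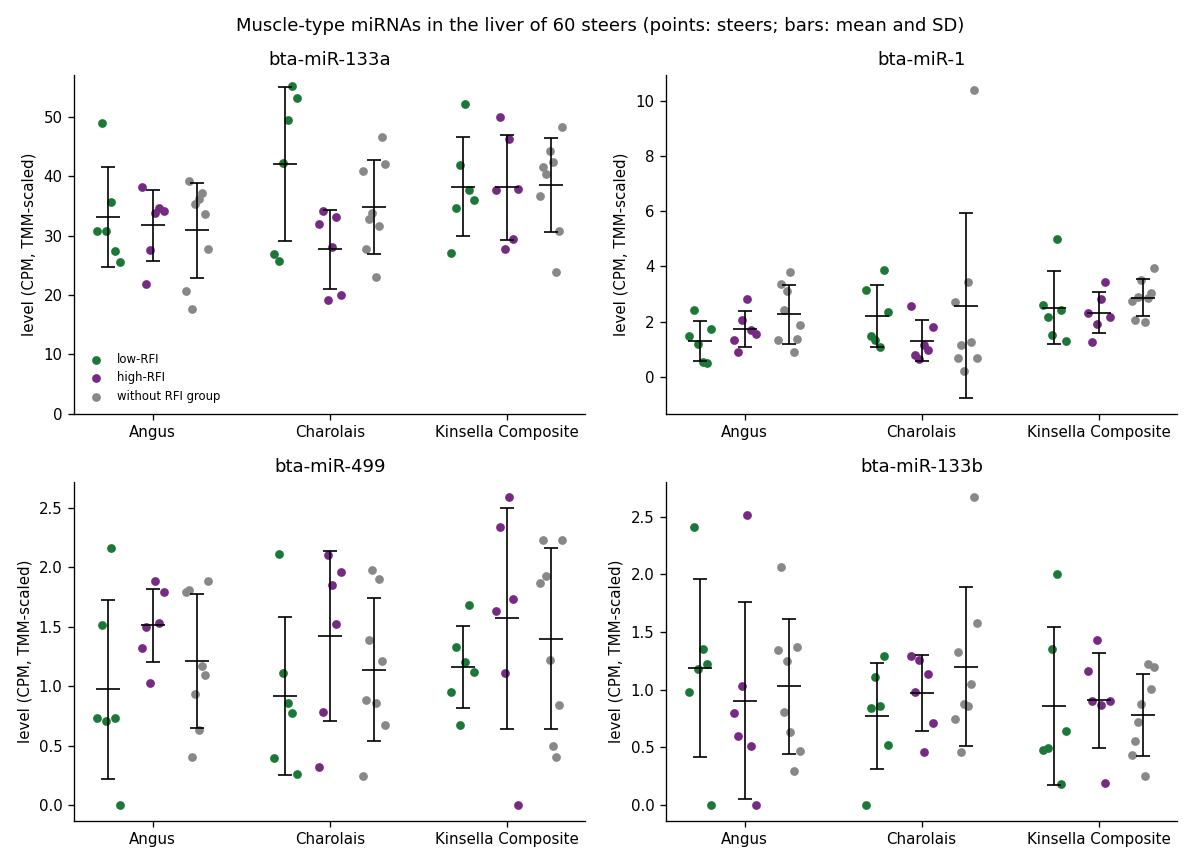
Level of 4 members in each of 60 steers (CPM, TMM-scaled, linear axes that differ between panels), by breed and RFI group, with the mean and SD of each group as bars. The bta-miR-133a values lie between 17.7 and 55.2 CPM with overlap among all groups, and 1 Charolais steer at 10.4 CPM lies above all others for bta-miR-1.

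The first comparison asked whether the members differ between breeds. For bta-miR-133a the lowest, median and highest levels were 17.7, 33.7 and 48.9 CPM in Angus, 19.1, 33.0 and 55.2 CPM in Charolais, and 23.8, 37.7 and 52.1 CPM in KC. The 3 ranges overlapped over most of their length, and the means were 31.8 ± 7.25, 34.9 ± 10.6 and 38.3 ± 7.86 CPM (SD, n = 20 each). For bta-miR-1 they were 0.49, 1.63 and 3.78 CPM in Angus, 0.22, 1.3 and 10.4 CPM in Charolais, and 1.26, 2.52 and 5.01 CPM in KC. The median was highest in KC, whose lowest steer was above the lowest of both other breeds. For bta-miR-499 the medians were 1.25, 0.997 and 1.28 CPM in Angus, Charolais and KC, and for bta-miR-133b they were 1.0, 0.927 and 0.868 CPM, with ranges that overlapped.

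None of the 4 members tested passed an adjusted p of 0.05 in a breed comparison by edgeR's quasi-likelihood test on 443 miRNAs. Over all miRNAs, 1.35% were called for Charolais against Angus. The shares were 11.3% for KC against Angus and 17.2% for KC against Charolais, and 18.1% for any difference among breeds. The member closest to the threshold was bta-miR-133a in KC against Angus, with a log2 fold change of 0.25 (SE 0.11, adjusted p = 0.127). In the same comparison bta-miR-1 had a log2 fold change of 0.50 (SE 0.26, adjusted p = 0.213). Against Charolais it was 0.40 in KC (SE 0.24, adjusted p = 0.281). The values of bta-miR-133b in KC were -0.27 against Angus and -0.25 against Charolais, and those of bta-miR-499 were 0.16 and 0.17 (SE between 0.22 and 0.25). Over all tested miRNAs the median log2 fold change was between -0.015 and 0.012 in the 3 comparisons. At an unadjusted p under 0.05 with a fold above 1.5, the study's own type of rule, 0 of the 4 members were called in any of the 3, against 3.61%, 6.09% and 7.67% of all miRNAs.

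A single animal decided the comparison of bta-miR-1 with Charolais. Charolais steer 16, which carries no RFI group, had 43 counts of bta-miR-1, or 10.4 CPM, where the next highest of all 60 steers had 5.01 CPM. The same library had the highest bta-miR-133b level (2.67 CPM, 11 counts), 1 of the 3 reads of bta-miR-206, and bta-miR-133a at 46.6 CPM, the 8th highest. Its bta-miR-499 was 1.21 CPM, near the median. This library also had the highest summed level of the stromal and smooth muscle list, 377000 CPM against a median of 168000 CPM, mostly bta-miR-143, and a low TMM factor of 0.685. Without the TMM factor its bta-miR-1 was 7.14 CPM and the next highest steer 5.24 CPM, so it stayed the highest. Its bta-miR-133b was then 1.83 CPM, under the 2.58 CPM of Angus steer 3, and so no longer the highest. Its bta-miR-133a was then 31.9 CPM. What part the stromal level and the TMM factor have in its bta-miR-1 level was not tested. Without this steer, bta-miR-1 averaged 1.65 ± 1.06 CPM in the other 19 Charolais steers. KC then exceeded Charolais by a log2 fold change of 0.75 (SE 0.21, edgeR adjusted p = 0.00627), where 17.4% of all miRNAs were called, and Charolais against Angus turned from 0.09 to -0.26 (adjusted p = 0.656). That exclusion was chosen after the values were seen.

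**Figure D2:**
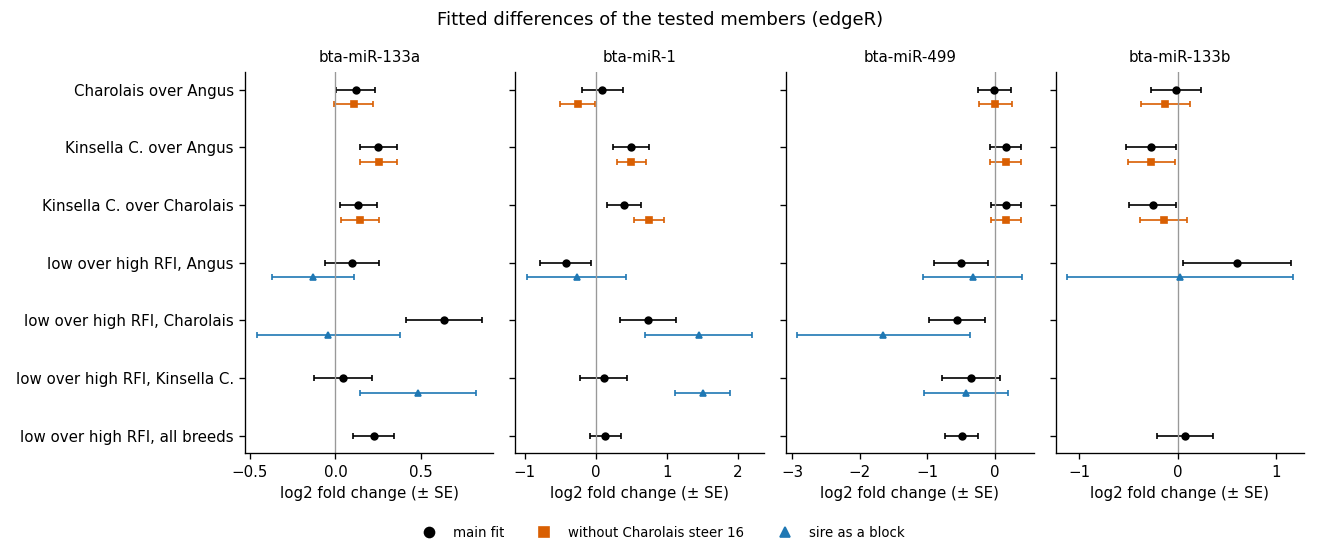
Fitted log2 fold changes with their standard errors (edgeR) of 4 members for 3 breed comparisons and for low over high RFI in each breed and across breeds, where a missing point is a miRNA that was under the filter. Squares leave out Charolais steer 16, which moves bta-miR-1 in KC over Charolais from 0.40 to 0.75, and triangles add the sire as a block, which moves bta-miR-133a in Charolais from 0.64 to -0.04.

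The second comparison asked whether the members differ between efficient and inefficient steers of one breed. In Charolais, bta-miR-133a was 25.8, 45.9 and 55.2 CPM (lowest, median and highest) for low RFI and 19.1, 30.0 and 34.2 CPM for high RFI. Of the 6 low-RFI steers, 4 lay above every high-RFI steer and the other 2 lay within the high-RFI range. The log2 fold change was 0.64 (SE 0.22, unadjusted p = 0.0113, edgeR adjusted p = 0.726). The exact two-sided permutation test over 924 relabelings gave p = 0.0476, 1 of 12 such tests run, where the smallest possible value is 0.00216. By the rule of an unadjusted p under 0.05 with a fold above 1.5, bta-miR-133a was called, as were 2.41% of all miRNAs tested in Charolais. Its fold fell under 1.5 without Charolais steer 9, 15, 17 or 20, at log2 fold changes of 0.54, 0.53, 0.57 and 0.57. At an adjusted p under 0.05, 0 of 373 miRNAs were called there by edgeR, and 20 had an unadjusted p under 0.05.

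In Angus and KC the levels of bta-miR-133a overlapped between the RFI groups, and in KC their ranges were nearly the same. In Angus they were 25.6, 30.8 and 48.9 CPM for low RFI and 21.9, 34.0 and 38.1 CPM for high RFI, and 27.1, 36.8 and 52.1 CPM against 27.7, 37.7 and 50.0 CPM in KC. The log2 fold changes were 0.10 (SE 0.16) and 0.05 (SE 0.17), with edgeR adjusted p-values of 0.957 and 0.994. A test of whether the RFI difference of bta-miR-133a varied among breeds gave an unadjusted p of 0.0747 (edgeR adjusted p = 0.914). With the 36 steers in one fit, the difference was 0.22 (SE 0.12, adjusted p = 0.830), and 0.235% of 426 miRNAs were called.

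The levels of bta-miR-1, its cluster partner, were 1.07, 1.91 and 3.87 CPM for the low-RFI group of Charolais and 0.629, 1.05 and 2.58 CPM for the high-RFI group. The groups overlapped, although each of the 6 efficient steers exceeded the median of the inefficient ones. The log2 fold change was 0.74 (SE 0.40, edgeR adjusted p = 0.857). Without Charolais steer 5, 7, 14 or 20 it was 0.95, 0.88, 0.90 and 0.92, and bta-miR-1 then passed the unadjusted rule. In the main Charolais fit that rule called 2.41% of all miRNAs. The log2 fold change of bta-miR-1 was -0.42 (SE 0.36) in Angus and 0.11 (SE 0.33) in KC, and neither passed (adjusted p = 0.957 and 0.994). The test of a difference among breeds gave an unadjusted p of 0.153.

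For bta-miR-499, the low-RFI and high-RFI medians were 0.735 and 1.51 CPM in Angus and 0.815 and 1.68 CPM in Charolais. In KC the low-RFI steers ranged from 0.675 to 1.68 CPM and the high-RFI steers from 0 to 2.59 CPM. The groups overlapped in all 3 breeds. The log2 fold changes of low over high RFI were -0.51 (SE 0.40), -0.57 (SE 0.42) and -0.35 (SE 0.43), and across breeds -0.49 (SE 0.24, unadjusted p = 0.0513, edgeR adjusted p = 0.830). These rest on 0 to 13 counts per steer. Without Angus steer 8, a low-RFI steer at 2.16 CPM, the Angus value was -0.87, and without KC steer 20, a high-RFI steer at 0 counts, the KC value was -0.66, and each then passed the unadjusted rule (unadjusted p = 0.0493 and 0.0342). As a difference of mean log2 CPM, bta-miR-499 was -1.01 in Angus and -0.615 in Charolais (exact permutation p = 0.0931 and 0.266). On that scale KC had the opposite sign, at 0.0435 (exact permutation p = 0.983). For bta-miR-133b, tested only in Angus because of the filter, the log2 fold change was 0.61 (SE 0.55, adjusted p = 0.957), with low-RFI levels from 0 to 2.41 CPM and high-RFI levels from 0 to 2.51 CPM. Across breeds it was 0.08 (SE 0.28). By edgeR, 0 of the members tested passed an adjusted p of 0.05 in Angus, Charolais, KC or across breeds, where 0%, 0%, 0% and 0.235% of all miRNAs did. By the unadjusted rule with a fold above 1.5 the only member called here was bta-miR-133a in Charolais. Of all miRNAs this rule called 2.68% in Angus, 1.82% in KC and 0.704% across breeds. At an unadjusted p under 0.05 alone, edgeR gave 15 miRNAs in Angus, 17 in KC and 15 across breeds. The calls of the study differ from these. It lists bta-miR-133a in Charolais as lower in low-RFI steers by sequencing, the opposite sign, but as higher by a PCR assay, the sign found here. The study nevertheless describes its sequencing and PCR results as consistent, and reports a high correlation between their profiles. The study also lists bta-miR-133b in Angus as higher in low-RFI steers, a call not made here although the direction was the same. It used a likelihood-ratio test, where the quasi-likelihood test was used here. The cause of these differences was not tested.

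In Charolais the RFI groups were largely different families. The 6 high-RFI steers had 2 sires, with 4 from C199401469 and 2 from C201100123, while the 6 low-RFI steers had 4 sires, and C199401469 was the only sire with steers of both groups. Among the members, bta-miR-133a had the lowest p in a test among the sires with 3 or more steers. The 4 steers of C201000050 ranged from 42.1 to 55.2 CPM and averaged 49.3 ± 6.04 CPM (SD), above all 8 steers of C199401469, which ranged from 19.1 to 40.9 CPM with a mean of 30.2 ± 6.38 CPM. The 3 steers of C199501004 ranged from 31.6 to 49.5 CPM and the 3 of C199901014 from 23.1 to 33.8 CPM. In C201000050 both low-RFI steers (55.2 and 53.2 CPM) and both steers without a group (46.6 and 42.1 CPM) were high.

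A fit of the 18 Charolais steers of these 4 sires gave an unadjusted p of 0.00248 for bta-miR-133a and an edgeR adjusted p of 0.0980, where 2.02% of 396 miRNAs were called. For bta-miR-1 the unadjusted p was 0.0330 (edgeR adjusted p = 0.421), with Charolais steer 16 among the 4 steers of C201000050. With the sire as a block, the RFI difference of bta-miR-133a in Charolais fell from 0.64 to -0.04 (SE 0.42, adjusted p = 0.986). That fit compares 1 low-RFI steer, at 26.9 CPM, with 4 high-RFI steers of the same sire, so that RFI group and sire cannot be told apart. In KC, where 1 low-RFI and 3 high-RFI steers had a sire in common, the block moved bta-miR-1 from 0.11 to 1.51 (SE 0.39, unadjusted p = 0.0103, edgeR adjusted p = 0.701), and the low-RFI steer behind it, KC steer 9, had 5.01 CPM. Among the 14 Angus and 11 KC steers of sires with 3 or more steers, no member passed (edgeR adjusted p of 0.784 or higher), where 0% of all miRNAs were called in either breed.

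**Figure D3:**
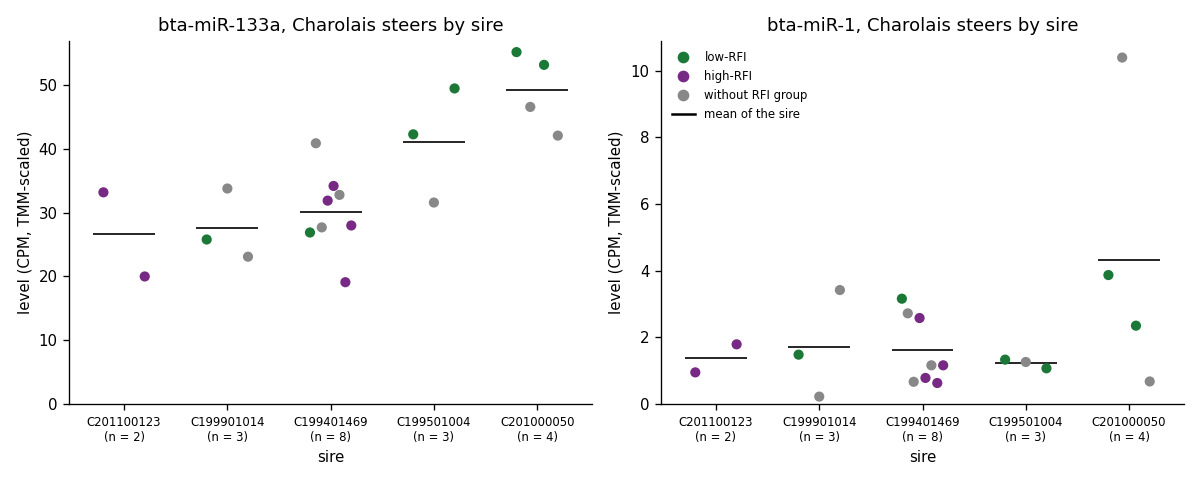
Level (CPM, TMM-scaled) of bta-miR-133a and bta-miR-1 in the 20 Charolais steers by sire, coloured by RFI group, with the mean of each sire as a line. All 4 steers of C201000050 lie at 42.1 CPM or more for bta-miR-133a, while their bta-miR-1 levels run from 0.675 to 10.4 CPM.

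The third comparison asked whether the members rise in the same steers. Levels on a log2 CPM scale were set against each breed's mean, and 6 pairs were tested with 100000 permutations within breeds. For bta-miR-133a and bta-miR-1, Pearson's r was 0.194 (95% interval -0.0628 to 0.427, permutation p = 0.182, adjusted over the 6 pairs 0.298) and Spearman's rho 0.149 (permutation p = 0.279, adjusted 0.558). Without the 2 steers farthest from the median of bta-miR-133a, r was 0.187. For bta-miR-133a and bta-miR-133b, which share a seed and nearly all bases, r was 0.2 (interval -0.0564 to 0.432, permutation p = 0.131, adjusted 0.298) and rho 0.227 (permutation p = 0.08, adjusted 0.477), and r without the 2 farthest steers was 0.244. Neither pair passed, and the upper bounds of these intervals were 0.427 and 0.432.

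The remaining pairs all had intervals that included 0. For bta-miR-133b and bta-miR-499, r was 0.215 (permutation p = 0.104, adjusted 0.298) with rho 0.00175 (permutation p = 0.99), and r was -0.0537 without the 2 steers farthest from the median of bta-miR-133b, so that the value rested on those steers. For bta-miR-1 and bta-miR-499, r was -0.163 (permutation p = 0.199, adjusted 0.298) with rho -0.189 (permutation p = 0.159). For bta-miR-1 and bta-miR-133b, r was 0.05 (permutation p = 0.708) with rho 0.0306 (permutation p = 0.816), and for bta-miR-133a and bta-miR-499, r was 0.03 (permutation p = 0.819) with rho 0.0148 (permutation p = 0.915). Counting accounted for most of the variance of bta-miR-133b and bta-miR-499, as given above, which lowers any correlation with either.

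Within breeds the pair of bta-miR-133a and bta-miR-1 gave r of 0.179 (Angus), 0.253 (Charolais) and 0.0483 (KC), and none passed (permutation p of 0.283 or higher). The Charolais value was 0.0689 without the 2 steers farthest from the median of bta-miR-133a. Without Charolais steer 16 it was 0.133 (permutation p = 0.585) in the other 19 Charolais steers, and the pooled r was 0.131. The lowest of the 18 values within breeds was that of bta-miR-133a and bta-miR-499 in Charolais, with r of -0.467 and rho of -0.493 (permutation p = 0.0385 and 0.0288, adjusted over the 18 values 0.479 and 0.427). The same pair gave 0.337 in Angus and 0.296 in KC, and the difference among breeds was not tested. With the mean of each sire removed, r of bta-miR-133a and bta-miR-1 was -0.0122 (permutation p = 0.94).

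The steers highest in each member were also compared by name. Of the 15 steers highest above their breed mean in bta-miR-133a, which are 25% of all steers, 8 were among the 15 highest in bta-miR-1, or 53.3% of each list. It was 6 of 15 with bta-miR-133b and 4 of 15 with bta-miR-499. For bta-miR-1 it was 7 of 15 with bta-miR-133b and 3 of 15 with bta-miR-499, and for bta-miR-133b and bta-miR-499 it was 5 of 15. These overlaps are descriptions with no test, and their number of 15 was chosen after the values were seen. KC steer 9 was 3rd in bta-miR-133a (52.1 CPM), 2nd in bta-miR-1 (5.01 CPM) and 5th in bta-miR-133b (2.0 CPM), but 31st in bta-miR-499 (1.2 CPM). Charolais steer 15 was highest in bta-miR-133a (55.2 CPM) and 4th in bta-miR-1 (3.87 CPM), and 45th in bta-miR-499. Charolais steer 17 was 2nd in bta-miR-133a (53.2 CPM) but 24th in bta-miR-1 and 57th in bta-miR-499, with 1 count.

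**Figure D4:**
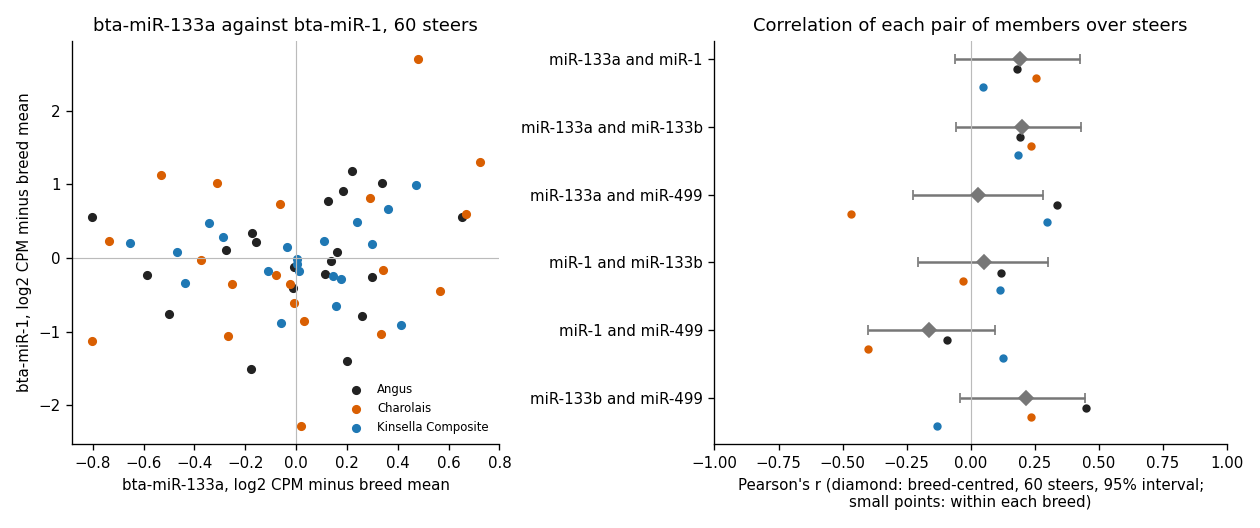
Left, bta-miR-1 against bta-miR-133a in 60 steers, both as log2 CPM minus the mean of the breed. Right, Pearson's r for the 6 pairs of members over all steers (diamonds with 95% intervals) and within each breed (small points), where all 6 intervals include 0 and bta-miR-133a with bta-miR-499 runs from -0.467 in Charolais to 0.337 in Angus.

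The miRNAs whose pattern over steers was most like that of bta-miR-133a were not muscle miRNAs by name. Spearman's rho on breed-centred log2 CPM over 60 steers was highest for bta-miR-125b (0.463), bta-miR-2285bl (0.401), bta-miR-374b (0.361), bta-miR-2483-5p (0.333) and bta-miR-27a-3p (0.331). Among the tested miRNAs bta-miR-133b was 28th, bta-miR-1 64th and bta-miR-499 198th in likeness to it, and the median over all was -0.00378. Likeness to bta-miR-499 was highest for bta-miR-151-5p (0.41), bta-miR-181b (0.355), bta-miR-11971 (0.346), bta-miR-1388-5p (0.34) and bta-miR-378d (0.338), with bta-miR-133a 229th and bta-miR-1 417th. All values of a steer come from 1 library, so that depth and the share taken by the most abundant miRNAs enter each of them. The level of bta-miR-1 had a rho of -0.244 with the total counts of the library, and those of bta-miR-133a, bta-miR-133b and bta-miR-499 had 0.0222, 0.101 and 0.207.

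Summed by list, the members were scarce beside miRNAs that mark other cells of the liver. The striated muscle list summed to 21.4 to 61.4 CPM per steer, against 282000 to 577000 CPM for 5 hepatocyte miRNAs, led by bta-miR-192, and 116000 to 377000 CPM for 6 stromal and smooth muscle miRNAs, led by bta-miR-143. The epithelial list summed to 109 to 354 CPM and the erythroid list, led by bta-miR-486, to 3390 to 13600 CPM. The leukocyte list summed to 4120 to 7410 CPM and 2 endothelial miRNAs to 13800 to 20800 CPM. By mean level, single miRNAs of these lists were not all above bta-miR-133a, which ranked 148. Below it were bta-miR-144 (erythroid), bta-miR-223 (leukocyte), and bta-miR-200b, bta-miR-200c and bta-miR-429 (epithelial). The other miRNAs of the lists for these liver cells ranked above it, the closest being bta-miR-214 at 145 and bta-miR-885 at 143. Lists named for other distant tissues summed to low levels, at 36.1 to 88.7 CPM for nervous tissue, mostly bta-miR-128, and 43.2 to 156 CPM for pancreas, mostly bta-miR-375. Apart from bta-miR-9-5p, with a mean of 7.95 CPM, all their other members had means of 0.138 CPM or less. The skin miRNA bta-miR-205 had a mean of 0.056 CPM.

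The stromal and smooth muscle miRNAs had a median rho of -0.0272 with bta-miR-133a, positive for 2 of 6, and -0.0865 with bta-miR-1, positive for 1 of 6. The erythroid miRNAs had 0.212 with bta-miR-133a, positive for 3 of 3, and -0.115 with bta-miR-1, positive for 0 of 3. The hepatocyte miRNAs had 0.00583 with bta-miR-133a, from -0.419 for bta-miR-192 to 0.26 for bta-miR-122. For the 3 other tested members of the striated list the median with bta-miR-133a was 0.149. In Charolais, where bta-miR-133a was called by the unadjusted rule, the stromal and smooth muscle list summed to medians of 170000 CPM (low-RFI) and 171000 CPM (high-RFI), and the erythroid list to 6440 and 6210 CPM. The hepatocyte list summed to 363000 and 405000 CPM, with ranges of 325000 to 391000 and 361000 to 426000 CPM. Of its 5 miRNAs, the log2 fold change of low over high RFI was -0.20 for bta-miR-192, -0.24 for bta-miR-194 and 0.32 for bta-miR-122 (unadjusted p = 0.0252, 0.0246 and 0.0253, edgeR adjusted p = 0.726 each). Their part in the bta-miR-133a difference was not tested. The striated list summed to 49.0 and 34.0 CPM, which restates bta-miR-133a, the bulk of its counts. Both bta-miR-208a and bta-miR-206 were at 0 in all low-RFI Charolais steers, and bta-miR-208b gave 1 read there. In the high-RFI group bta-miR-206 gave 1 read, and bta-miR-208a and bta-miR-208b were at 0. Over all 60 steers bta-miR-208a, bta-miR-206 and bta-miR-208b were at 0 in 58, 57 and 55, so these counts cannot separate the groups.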

How the data were processed

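Small RNA libraries (TruSeq Small RNA kit) of 60 livers were used. The deposited values are raw read counts per mature miRNA and precursor, which the authors made with bcl2fastq 2.17.1.14, FastQC 0.11.7, cutadapt 1.16 and Bowtie 1.1.1 on UMD3.1, after removal of other small RNAs, and with miRDeep2, without normalization. Where a miRNA had more than 1 precursor, the mean of their counts was taken and rounded. The pool of each library is not given in the sources used here.

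Groups follow the labels. Breed, RFI group and sire were tested with edgeR 4.0.16 in R 4.3.3, using its quasi-likelihood F test and TMM factors, on every miRNA that reached 1 CPM in 6 or more steers, with Benjamini-Hochberg adjusted p-values. The procedure was also run on simulated data with many changed miRNAs, and its rates there are not used here. Log2 CPM used a prior count of 0.5. DESeq2 1.42.0 served as an alternative. Correlations and exact tests used Python 3.11.15 with scipy 1.17.1. Intervals of Pearson's r are Fisher's and cover the sampling of steers, and floors of counts cover counting error only.

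The members, lists and rules were chosen with earlier results of these data known. Named were the members, bta-miR-208a and bta-miR-208b, and the 5 miRNAs most alike to bta-miR-133a and to bta-miR-499, while list members were named by abundance. Single steers and bta-miR-133c were singled out after their values were seen. Alternatives changed the test, normalization, filter, precursors, depth and choice of steers. Predicted miRNAs were not analysed here.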

Additional observations from a re-analysis of the deposited data

Results flagged for a closer look

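Dixon's criterion was applied to each member in each breed and RFI group of 6 or 8 steers, in 39 groups where values varied, and 5 steers stood apart. Chance alone flags about 1 in 20 groups of continuous values, a rate that does not hold for bta-miR-206. Its groups at 0 in every steer were left out. For bta-miR-1, Charolais steer 16 at 10.4 CPM (43 counts) stood apart from the other steers without an RFI group, which ranged from 0.22 to 3.42 CPM, and KC steer 9 at 5.01 CPM (25 counts) from the other low-RFI KC steers, at 1.28 to 2.61 CPM. For bta-miR-206 the 3 single reads were flagged, at 0.322 CPM in Charolais steer 5, 0.243 CPM in Charolais steer 16 and 0.18 CPM in KC steer 8, in groups where all others were at 0. Any group with 1 read and otherwise 0 is flagged by this criterion, so these 3 flags were fixed in advance. A single read is within counting error of 0.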

How the results depend on the processing

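By adjusted p, 0 members were called in every comparison and under every alternative, except 1 (bta-miR-1, KC over Charolais) without Charolais steer 16. Of 208 recounts of called members, by adjusted p or by the unadjusted rule with a fold above 1.5, 195 gave the main count. By the unadjusted rule with a fold above 1.5, 1 member was called in KC against Charolais without Charolais steer 16, 1 in KC against Angus without the sire A200901020, 0 in Charolais RFI and 1 in KC RFI with sire as a block. Leaving out 1 steer at a time, this count ran from 0 to 1 in Angus, 0 to 2 in Charolais and 0 to 1 in KC. In Charolais it was 0 without high-RFI replicate 3, low-RFI replicate 5 or low-RFI replicate 6 (steers 9, 15 and 17). In the main fits this rule called 2.68%, 2.41% and 1.82% of all miRNAs for RFI in Angus, Charolais and KC. It called 6.09% for KC against Angus and 7.67% for KC against Charolais. The shares of all miRNAs in the refits are not given here.

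Of 371 refitted log2 fold changes 25 changed sign, and none of these had passed an adjusted p, although bta-miR-133a in Charolais RFI had passed the unadjusted rule. For Charolais against Angus, bta-miR-1 turned to -0.016 without the sire A200801106 and to -0.26 without Charolais steer 16. There bta-miR-133b turned to 0.0018 with RLE size factors, 0.14 without the sire C199401469 and 0.0032 without the 52 pairs listed only for KC. For bta-miR-499 the same comparison gave 0.0087 with RLE, 0.0035 with no filter, 0.0064 with precursors summed, 0.014 without the sire A200801106, 0.12 without C199401469, 0.0043 without K201100043, 0.010 without the pairs listed only for KC and 0.0034 without Charolais steer 16. KC against Charolais gave -0.0035 for bta-miR-133a without the sire C199401469. The RFI difference of bta-miR-133a with sire as a block was -0.13 in Angus and -0.041 in Charolais, and that of bta-miR-1 across breeds was -0.063 without the sire K201100043. Without 1 steer at a time, the RFI difference of bta-miR-133a ran from -0.050 to 0.15 in Angus and from -0.072 to 0.14 in KC, and that of bta-miR-1 in KC from -0.21 to 0.26. The cause was not tested.

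None of the 66 other correlations passed an adjusted p of 0.05, although some had an unadjusted permutation p under 0.05, and 9 changed sign. That of bta-miR-133a and bta-miR-1 was -0.0122 with the sire mean removed. That of bta-miR-133a and bta-miR-499 was -0.112 without Angus, -0.0871 without KC and -0.15 in steers with at least 3 counts of both. That of bta-miR-1 and bta-miR-133b was -0.0177 with thinned counts, -0.0465 with the sire mean removed and -0.0498 without Charolais steer 16. In steers with at least 3 counts of both, bta-miR-1 with bta-miR-499 gave 0.023 and bta-miR-133b with bta-miR-499 gave -0.0491. Without breed centring, bta-miR-133a with bta-miR-1 gave 0.264 (permutation p = 0.042). The rho of that pair was 0.296 with thinned counts (permutation p = 0.0263). For bta-miR-133b with bta-miR-499, r was 0.376 with the sire mean removed and 0.363 without KC (permutation p = 0.0322 and 0.0295). Without Charolais, bta-miR-133a with bta-miR-499 gave 0.316, and with the 3-count minimum bta-miR-1 with bta-miR-133b gave 0.294 (permutation p = 0.0485 and 0.0473). Leaving out Charolais steer 16 or Angus steer 17, the 3-count minimum, the pairs listed only for KC, sire as a block and dispersions estimated first were chosen after seeing the data. No paired analysis was possible because replicate numbers only name the steers.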

Other observations

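Likeness to the other members was looked at after their values were seen. The pattern of bta-miR-1 over 60 steers was most like those of bta-miR-155 (rho 0.333), bta-miR-11977 (0.328) and bta-miR-9-5p (0.262), and least like that of bta-miR-199a-5p, a miRNA of the stromal list (-0.452, the lowest over all tested). The pattern of bta-miR-133b was most like those of bta-miR-490 (0.411) and bta-miR-2284w (0.409). These are descriptions with no test, and bta-miR-133b rests on at most 11 counts per steer.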
